A study of Mus musculus with 6 samples.

Results

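Trp53, the gene for the tumour suppressor p53, and a set of genes whose products control p53 were examined for occupancy by CDK6 in mouse leukemic cells. The 10 genes were Trp53, Mdm2, Mdm4, Prmt5, Ppm1d, Atm, Atr, Chek1, Chek2 and Usp7, out of 22028 protein-coding genes of the annotation. Membership was by name, with no threshold on a measured value, and every peak that overlapped a promoter (2000 bp before to 200 bp after any annotated transcript start, by at least 1 bp) or the gene body was assigned to them. The cells were BCR::ABL1+ pre/pro-B-cell lines, transformed by the BCR::ABL1 fusion kinase. All of them lacked the endogenous Cdk6 gene (Cdk6-/-) and overexpressed an HA-tagged CDK6 instead, either wildtype (CDK6-WT, 2 libraries) or with the K43M substitution that removes kinase activity (CDK6-K43M, 2 libraries). Chromatin was fixed with DSG and formaldehyde and precipitated with an anti-HA antibody, so that the comparison asks whether occupancy requires the kinase function. The tagged proteins were overexpressed, the labels do not say whether replicates came from separate cultures, and whether the lines carry functional p53 was not given in the sources used here.

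The p53 protein is a transcription factor that is kept scarce in unstressed cells and accumulates after DNA damage or oncogene activation, when it halts the cell cycle or triggers apoptosis. MDM2 is the ubiquitin ligase that marks p53 for degradation, its relative MDM4 blocks the transactivating part of p53, and USP7 removes ubiquitin from both p53 and MDM2. The arginine methyltransferase PRMT5 methylates p53 and alters which targets it activates, and the phosphatase PPM1D (also called WIP1) switches the damage signal off again. ATM and ATR are the kinases that sense broken or stalled DNA, and CHEK1 and CHEK2 are the checkpoint kinases they activate. In BCR::ABL1+ cells p53 is a barrier to transformation, and the kinase function of CDK6 has been linked to the expression of p53 antagonists. CDK6 has no DNA-binding domain, so its peaks mark contact through other proteins.

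Stretches of the occupied promoters are shown because the peak summits fell in or beside them. They are from the GRCm38.p6 assembly (mm10), 5′ to 3′ on the strand of the gene, and capitals mark matches on either strand to the CCAAT box bound by NFY or the SP1 motif GGGCGG. All 10 genes had an entry in the RefSeq promoter table, from which the stretches were taken except for the upstream site of Trp53, which was read from the genome around the strongest summit of all (base 47 of the stretch, CDK6-K43M replicate 1). That stretch lies in an intron of Wrap53, the gene on the opposite strand.
Trp53 upstream site, plus strand, chr11:69579325-69579446: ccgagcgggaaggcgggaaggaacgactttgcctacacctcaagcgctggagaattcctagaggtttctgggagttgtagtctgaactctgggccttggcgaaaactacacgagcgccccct
Mdm2, minus strand, chr10:117710729-117710878: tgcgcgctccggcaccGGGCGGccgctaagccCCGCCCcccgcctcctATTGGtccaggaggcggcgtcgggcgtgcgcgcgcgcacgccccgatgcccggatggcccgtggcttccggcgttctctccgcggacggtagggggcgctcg
Mdm4, minus strand, chr1:133025387-133025536: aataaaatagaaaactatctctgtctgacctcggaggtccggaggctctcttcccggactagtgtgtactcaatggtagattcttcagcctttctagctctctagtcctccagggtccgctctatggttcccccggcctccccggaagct
Prmt5, minus strand, chr14:54517496-54517645: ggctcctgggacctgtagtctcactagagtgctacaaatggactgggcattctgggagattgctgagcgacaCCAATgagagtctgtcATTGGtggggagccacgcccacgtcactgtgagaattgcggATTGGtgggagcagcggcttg
Chek1, minus strand, chr9:36726629-36726778: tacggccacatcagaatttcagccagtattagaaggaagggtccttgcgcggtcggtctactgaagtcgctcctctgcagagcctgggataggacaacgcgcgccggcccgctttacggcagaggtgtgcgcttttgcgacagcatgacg
Chek2, plus strand, chr5:110839859-110840008: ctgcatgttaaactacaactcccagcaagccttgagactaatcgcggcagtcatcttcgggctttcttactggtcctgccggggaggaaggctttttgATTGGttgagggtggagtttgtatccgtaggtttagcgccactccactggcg

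At Mdm2, the summits fell on bases 78 and 1 (CDK6-WT replicates 1 and 2) and on bases 98 and 72 (CDK6-K43M replicates 1 and 2) of the stretch shown. At Mdm4 they fell on bases 98 and 76 in CDK6-WT and on base 113 in CDK6-K43M replicate 1, with the fourth summit 38 bp beyond the RefSeq start. The 3 capital runs at Prmt5 are CCAAT boxes, and the summits of both replicate 1 lists (bases 47 and 82) lay beside them. Chek1 and Mdm4 had no match to these motifs in the stretch.

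CDK6 occupied the promoters of all 10 genes, with either variant. Each of the 4 peak lists held a promoter peak for 10 of 10 genes. Over all protein-coding genes the share was 47.0% in CDK6-WT replicate 1, 40.1% in CDK6-WT replicate 2, 48.5% in CDK6-K43M replicate 1 and 39.4% in CDK6-K43M replicate 2. A promoter peak in all 4 lists was found for 10 of 10 genes against 33.2% of all genes. A merged region was called bound by both variants when at least 3 of the 4 lists had a peak in it, and by this rule 10 of 10 genes had such a promoter region against 41.3% of all genes. The 10 genes had more annotated transcript starts (median 7.5, range 2 to 13) than protein-coding genes in general (median 3), and each start adds a promoter window. The part of this in the count was not tested. With windows of 500 bp on either side of each start, or with starts of basic protein-coding transcripts only, the counts were also 10 of 10. The share of all genes was not computed for these windows, so these counts have no share to be set beside.

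The strength of the peaks qualified this count. When only peaks with a −log10 q of at least 10 were kept, 2 of 10 genes (Trp53 and Atm) had a promoter region bound by both variants, against 17.1% of all genes. Among the 10000 highest peaks of each list the same 2 genes had such a region, against 12.7%. All 10 genes kept a promoter peak at a −log10 q of 10 in both replicate 1 lists, but 2 genes did in CDK6-WT replicate 2 and 3 in CDK6-K43M replicate 2. Peaks of this strength numbered 17350 and 11291 in CDK6-WT and 18378 and 11198 in CDK6-K43M (replicates 1 and 2). The share of all genes was not computed for each list at this threshold. At a −log10 q of at least 5, 9 genes had a promoter region bound by both, all but Chek2, against 33.8% of all genes.

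Peak strength was compared between lists as a percentile, the rank of the −log10 q of a peak within its own list, because −log10 q itself depends on library depth. The strongest promoter peak of each gene had a median percentile of 91.6 in CDK6-WT replicate 1 and 90.2 in CDK6-K43M replicate 1, but of 59.9 and 63.4 in the replicate 2 lists. For the 7312 genes with a promoter peak in all 4 lists the medians were 84.3, 86.1, 63.4 and 62.8 (CDK6-WT replicate 1, CDK6-K43M replicate 1, CDK6-WT replicate 2, CDK6-K43M replicate 2). The gap between replicate numbers was therefore also seen in the medians of these 7312 genes. At the median, replicate 1 exceeded replicate 2 by 32.4 points for the 10 genes and by 20.8 points for the 7312. The mean of the replicate 1 percentiles exceeded that of the replicate 2 percentiles at 10 of 10 genes and at 82.9% of the 7312 genes. Depth was estimated from the lowest background of each list, divided by its smallest peak width and by the factor that scaled its reads. By this estimate it was 10.1 and 10.5 reads per kb in CDK6-WT and 12.0 and 9.56 in CDK6-K43M (replicates 1 and 2). CDK6-K43M had 1.19 times the depth of CDK6-WT in replicate 1 and 0.911 times in replicate 2. The part of depth and of antibody enrichment in the gap between replicate numbers was not tested.

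**Figure D1:**
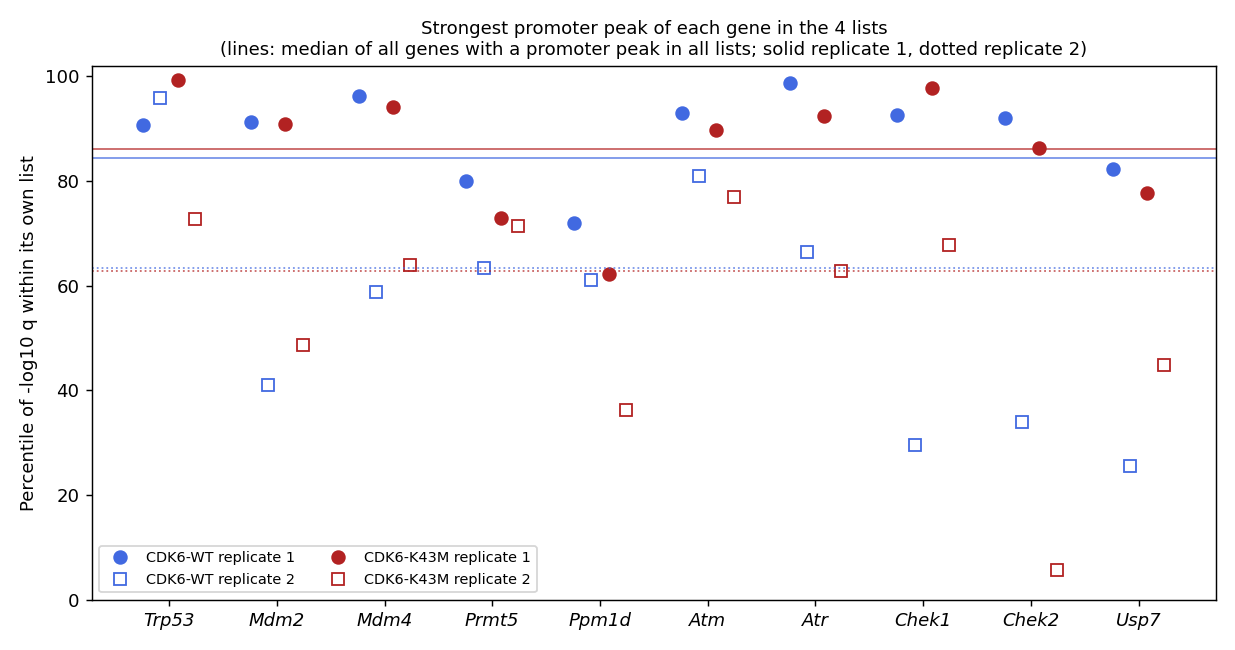
Percentile of the strongest promoter peak of each gene (y axis, 0 to 100, by −log10 q within its list) for CDK6-WT (blue) and CDK6-K43M (red), replicate 1 as filled circles and replicate 2 as open squares, with lines at the medians of 7312 genes. Filled points lie above open points of the same colour at 9 of 10 genes, Trp53 being the exception, and the colours overlap.

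Trp53 (chromosome 11, 69580359 to 69591873, plus strand) had the highest mean percentile of the group, 89.6 over the lists, above 91.1% of the 7312 genes. Its promoter region spanned 69578968 to 69580547 and held a pair of summits. The upstream summit, whose sequence is shown first above, lay at -1028 and -1016 bp in CDK6-WT and at -988 and -1037 bp in CDK6-K43M, so that the positions were within 50 bp of each other. A second summit lay at -37 and -62 bp in CDK6-WT and at -64 bp in CDK6-K43M replicate 2. In CDK6-K43M replicate 1 both sites were joined in one peak of 1532 bp. The percentile of the strongest promoter peak was 90.7 and 95.8 in CDK6-WT and 99.2 and 72.7 in CDK6-K43M. These values came from different sites, the start in CDK6-WT replicate 1 and the upstream summit in the other lists. At the start summit the percentile was 90.7 and 79.6 in CDK6-WT and 39.1 in CDK6-K43M replicate 2.

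At the upstream site of Trp53 the fold enrichment was 14.1 and 13.9 in CDK6-WT and 22.3 and 7.40 in CDK6-K43M (replicates 1 and 2). The reads over these summits were 36, 38, 70 and 18 in the same order. CDK6-K43M thus had both the highest and the lowest value, and the variants overlapped. Over the start itself the fold enrichment was 13.0 and 8.52 in CDK6-WT and 5.02 in CDK6-K43M replicate 2. Wrap53, which encodes a telomerase and Cajal body protein and whose antisense transcripts have been linked to Trp53 mRNA levels, starts at -104 bp on the opposite strand, so peaks over the start belong to both genes.

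Further regions, also bound by both variants, lay within the first intron of Trp53. The nearer one (69580615 to 69581725) was the only gene body region of the 10 genes that was present in all 4 lists, with its strongest summits at +1131 and +1169 bp in CDK6-WT and at +1096 and +1109 bp in CDK6-K43M from the nearest start. Its fold enrichment was 10.7 and 9.61 in CDK6-WT and 9.21 and 5.70 in CDK6-K43M. The farther one (69585820 to 69586158) was absent from the CDK6-WT replicate 2 list, and its fold enrichment was 5.45 in CDK6-WT replicate 1 and 6.46 and 4.36 in CDK6-K43M. Each variant thus occupied the same sites across the 5′ part of the gene.

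**Figure D2:**
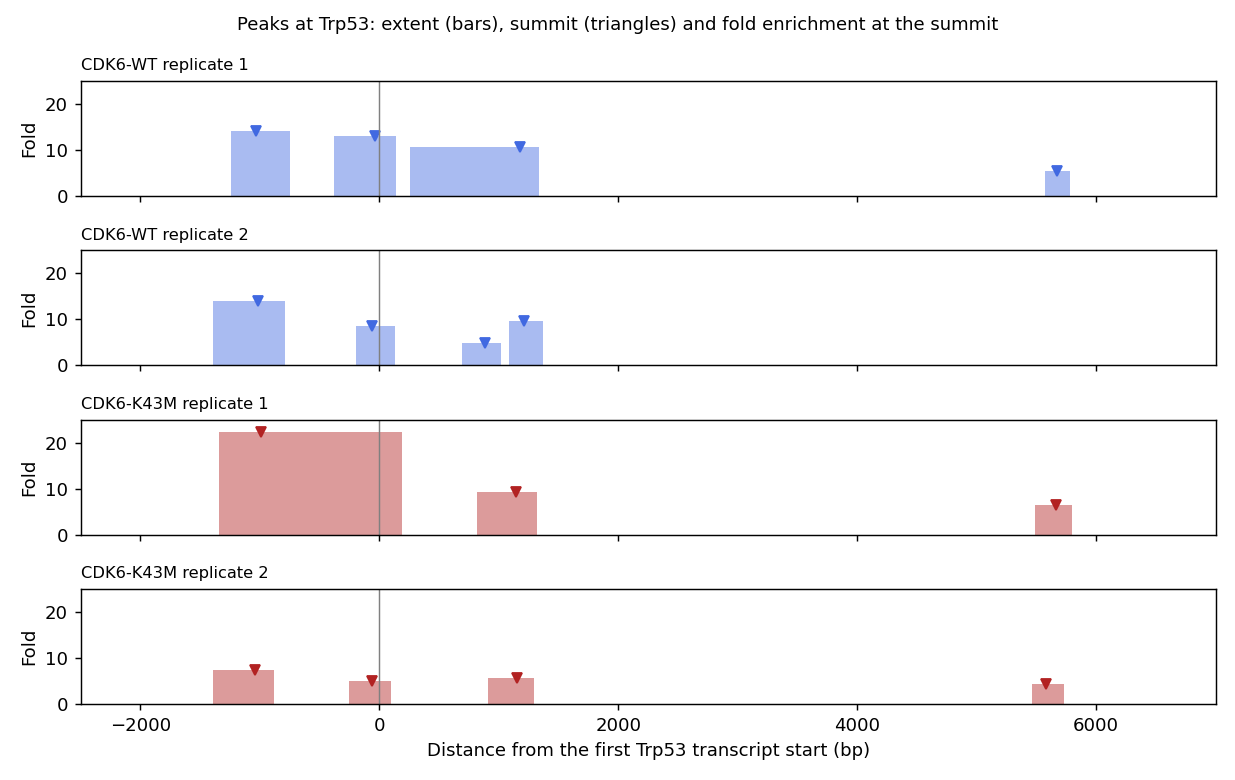
Peaks at Trp53 in the 4 lists. The x axis is the distance in bp from the first transcript start, bars span each peak, bar height and triangles give the fold enrichment at the summit. The upstream, start and intronic sites recur in each list, the first 2 joined in CDK6-K43M replicate 1, and the most distant site is missing from CDK6-WT replicate 2.

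Mdm2 (chromosome 10, 117688875 to 117710758, minus strand), the ligase that degrades p53, had its main peak over the first start. The percentile was 91.2 and 41.0 in CDK6-WT and 90.8 and 48.7 in CDK6-K43M, and the fold enrichment was 11.2, 4.62, 11.2 and 5.37 in the same order. The replicate 1 libraries were alike and high, the replicate 2 libraries alike and low, and the variants overlapped. A weaker second region (117709974 to 117710485) covered the start of the first intron, where Mdm2 has its p53-driven second promoter, and was listed in CDK6-WT replicate 1 and in both CDK6-K43M libraries. Its fold enrichment there was 6.62, 4.54 and 4.28, with 16, 13 and 10 reads over the summit.

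Mdm4 (chromosome 1, 132959484 to 133030561, minus strand), which binds p53 and blocks its activity, had its promoter peaks at an internal start, with none in the window of its most upstream one. The promoter region (133024841 to 133025763) had summits between -45 and -8 bp of the nearest start, and no promoter peak was listed elsewhere in the gene. The percentile was 96.3 and 58.7 in CDK6-WT and 94.1 and 64.0 in CDK6-K43M, with fold enrichments of 15.8, 6.16, 14.4 and 6.62. The replicate 1 libraries were again high and the replicate 2 libraries low in both variants. An intronic region (133012356 to 133012845) was listed in CDK6-WT replicate 1 and in both CDK6-K43M libraries, with fold enrichments of 10.1, 6.83 and 5.29. A region 602 to 662 bp inside the most upstream start (133029807 to 133030050) was listed in the replicate 1 libraries only, at percentiles of 55.2 in CDK6-WT and 56.5 in CDK6-K43M. A processed pseudogene on the opposite strand, Gm29257, starts at -385 bp of the occupied start.

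Usp7 (chromosome 16, 8689595 to 8792308, minus strand), the deubiquitinase of p53 and MDM2, had its main promoter region before an annotated start inside the gene. The summit of its main promoter region (8738743 to 8739216) lay at -553 and -521 bp in CDK6-WT and at -559 and -566 bp in CDK6-K43M. The percentile was 82.3 and 25.5 in CDK6-WT and 77.7 and 44.9 in CDK6-K43M, with 29, 13, 31 and 13 reads over the summit. The positions agreed within 50 bp while the strength followed the replicate number. The SP1 motif occurred 4 times within 100 bp of the strongest summit, and 3.27% of all promoter regions bound by both variants held at least 4. The threshold of 4 was taken from this count after it was seen. The matches at 8738975 to 8738980 and at 8738979 to 8738984 overlap.

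Usp7 also had the single promoter region of the group that was unique to a variant. A peak at 8737922 to 8738310 was listed in both CDK6-K43M libraries and in neither CDK6-WT library, with fold enrichments of 7.09 and 4.28, 21 and 10 reads over the summit, and percentiles of 55.2 and 16.2. Among all genes 0.713% had a promoter region unique to CDK6-K43M and 0.222% had one unique to CDK6-WT, and of the 10 genes 1 and 0 did. With 2 libraries a variant, such a region was not tested. The region lay at +220 and +109 bp from the nearest annotated start, which is inside the gene and not its most upstream one.

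Prmt5 (chromosome 14, 54507187 to 54517525, minus strand), the arginine methyltransferase, had 2 promoter regions, both present in all 4 lists. The region over the start (54517188 to 54517980) had fold enrichments of 8.98 and 6.46 in CDK6-WT and 6.86 and 5.45 in CDK6-K43M. The region upstream (54518049 to 54519107) had a strongest summit at -1282 and -1143 bp in CDK6-WT and at -1293 and -1212 bp in CDK6-K43M, with fold enrichments of 5.83, 4.25, 7.37 and 6.04. The upstream site was the stronger one by −log10 q in CDK6-K43M replicate 2 alone (10.5 against 6.02). The percentile of the strongest promoter peak was 79.9 and 63.4 in CDK6-WT and 73.0 and 71.4 in CDK6-K43M. The CDK6-K43M values came from different sites, the start in replicate 1 and the upstream region in replicate 2, and over the start itself they were 73.0 and 44.9.

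The Prmt5 start region was also marked by its sequence. It held 4 CCAAT boxes within 100 bp of the strongest summit, 3 of which are in the stretch shown, and 13 of 9900 promoter regions bound by both variants (0.131%) held at least 4. This count was singled out after it was seen, and a match describes letters, not binding by NFY.

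Ppm1d (chromosome 11, 85311244 to 85347066, plus strand), the phosphatase that dampens the damage response, showed weak peaks spread over its first exon and the sequence before it. The percentile of the strongest was 71.9 and 61.0 in CDK6-WT and 62.2 and 36.2 in CDK6-K43M, with 24, 18, 27 and 12 reads over the summit. CDK6-K43M was lower than CDK6-WT in both replicate numbers, with differences of -9.73 and -24.8 percentile points. The mean difference of -17.3 points exceeded the spread between the CDK6-WT replicates but not that between the CDK6-K43M replicates. The strongest summits were scattered from -493 to +101 bp and differed between lists. A second promoter region (85311942 to 85312560) was in all 4 lists, with fold enrichments of 7.01 and 6.06 in CDK6-WT and 7.09 and 4.03 in CDK6-K43M at the highest peak of each. A region in the first intron (85312993 to 85313258) was listed in both CDK6-WT libraries and in neither CDK6-K43M library, with fold enrichments of 5.45 and 6.06 and 13 and 16 reads.

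Atm (chromosome 9, 53439149 to 53536740, minus strand), the kinase that answers double-strand breaks, was occupied at a similar rank in all libraries. The percentile was 93.0 and 81.0 in CDK6-WT and 89.7 and 77.0 in CDK6-K43M, and the fold enrichment was 15.2, 8.30, 13.4 and 7.38. All 4 percentiles lay above the median of the 7312 genes in the same list, which of the 10 genes was also so at Trp53 alone. The summits stood at -140 and -251 bp in the replicate 1 lists and at +5 and -17 bp in the replicate 2 lists. Npat, an activator of histone genes, starts on the opposite strand at -307 bp, so the peak covers a shared promoter.

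Atr (chromosome 9, 95857597 to 95951781, plus strand), the kinase that answers stalled replication forks, had its 4 summits between -4 and +8 bp of an annotated start. The percentile was 98.6 and 66.4 in CDK6-WT and 92.4 and 62.8 in CDK6-K43M, with 57, 19, 50 and 16 reads over the summit. The peak of CDK6-WT replicate 1 was the highest promoter peak of the 10 genes in that list. An antisense transcript, 1700065D16Rik, starts at -80 bp, and a second region inside the gene (95858230 to 95858608) was listed in the replicate 1 libraries of both variants only.

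Chek1 (chromosome 9, 36708482 to 36727065, minus strand), the checkpoint kinase that ATR activates, had its strongest summits between -43 and +3 bp of a start. The percentile was 92.6 and 29.5 in CDK6-WT and 97.7 and 67.7 in CDK6-K43M, with 38, 17, 59 and 22 reads over the summit. It was one of 2 genes with a higher percentile in CDK6-K43M than in CDK6-WT within replicate 1, beside Trp53, and the difference of the means was the largest of the group in favour of CDK6-K43M, at 21.6 points. An E2F motif (TTTGGCGC or TTTCCCGC), which 2.45% of promoter regions bound by both variants held, lay 59 bp from the strongest summit.

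Chek2 (chromosome 5, 110839979 to 110874145, plus strand), the checkpoint kinase that ATM activates, had the widest spread between libraries. The percentile was 92.0 and 34.0 in CDK6-WT and 86.2 and 5.63 in CDK6-K43M, and the reads over the summit were 42, 18, 48 and 10. In CDK6-K43M replicate 2 the peak over the start reached 11 reads and a fold enrichment of 3.02, and a weak peak at +531 bp ranked higher. Its strong signal thus came from the replicate 1 libraries of both variants. Hscb, which encodes a cochaperone of iron-sulphur cluster assembly, starts on the opposite strand at -202 bp.

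**Figure D3:**
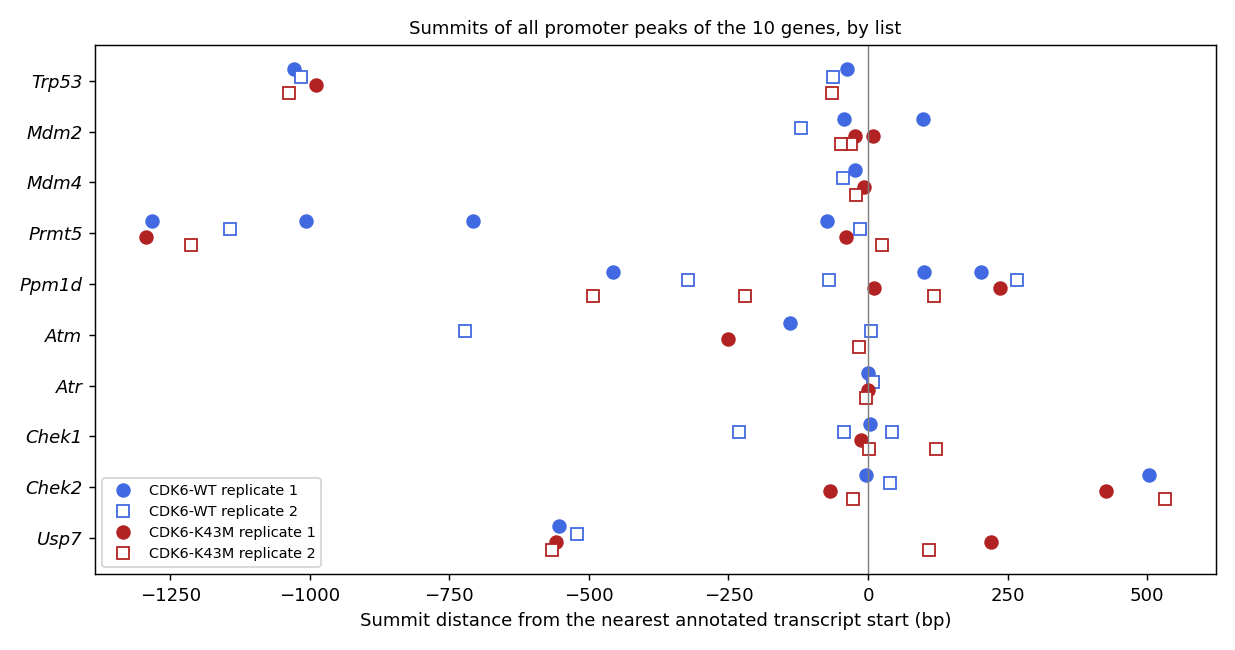
Summit positions of all promoter peaks of the 10 genes (x axis, bp from the nearest annotated transcript start; one row per gene), CDK6-WT in blue and CDK6-K43M in red, replicate 1 as filled circles and replicate 2 as open squares. Most summits cluster at the start, and the upstream sites of Trp53, Prmt5 and Usp7 recur in the lists of both variants.

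Across the 40 strongest promoter peaks (10 genes in 4 lists) the median distance between summit and nearest start was 43 bp, and 23 of them lay within 50 bp. The farther summits included the upstream sites of Trp53 and Usp7, the upstream region of Prmt5 in CDK6-K43M replicate 2, the downstream peak of Chek2 in the same list, and the scattered summits of Ppm1d and Atm. The reads over the strongest summit ranged from 24 to 57 in CDK6-WT replicate 1, from 13 to 38 in CDK6-WT replicate 2, from 27 to 70 in CDK6-K43M replicate 1 and from 10 to 23 in CDK6-K43M replicate 2. A count of 10 reads, as at Chek2, had a 95% exact Poisson interval of 4.80 to 18.4, and the 70 reads at Trp53 one of 54.6 to 88.4. These intervals cover counting error only.

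**Figure D4:**
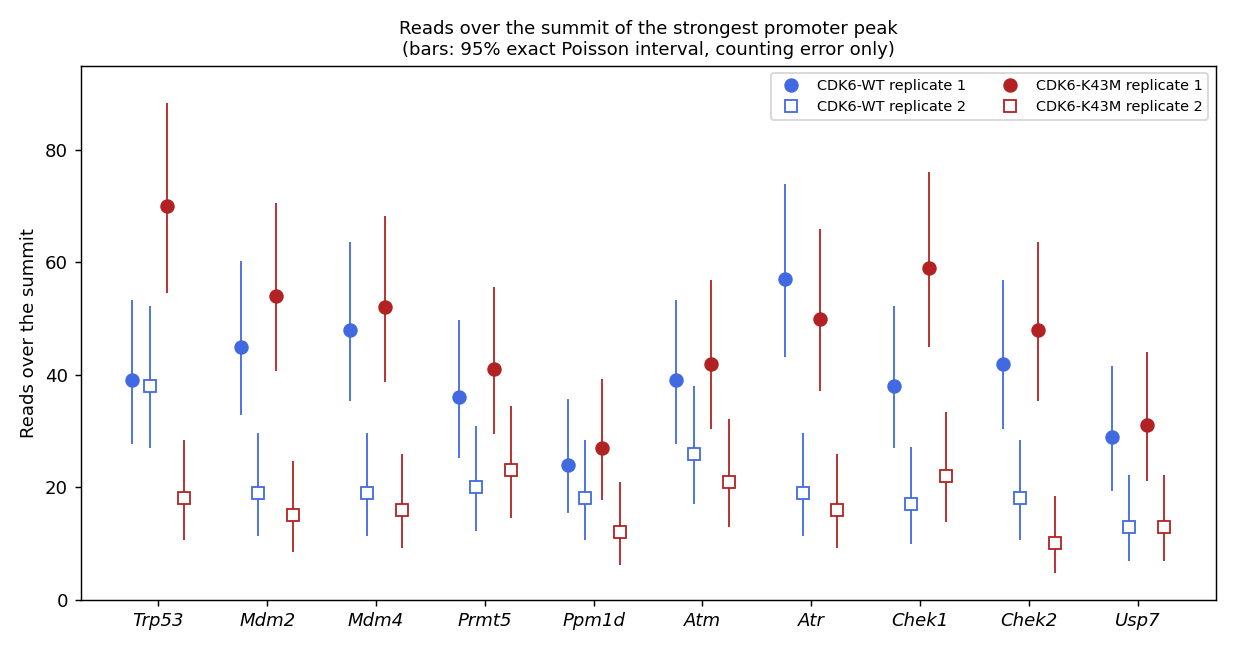
Reads over the summit of the strongest promoter peak of each gene (y axis, from 0) in CDK6-WT (blue) and CDK6-K43M (red), replicate 1 as filled circles and replicate 2 as open squares, with 95% exact Poisson intervals for counting error. Replicate 1 libraries held 24 to 70 reads and replicate 2 libraries 10 to 38, in both variants.

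At none of the 10 promoters did the difference between kinase-active and kinase-inactive CDK6 exceed the wider within-variant spread between replicates. It exceeded the CDK6-WT spread at Trp53 (percentiles of 90.7 and 95.8) and at Ppm1d (71.9 and 61.0). The difference in mean percentile, CDK6-K43M minus CDK6-WT, was -7.32 for Trp53, 3.69 for Mdm2, 1.54 for Mdm4, 0.557 for Prmt5 and 7.37 for Usp7. It was -17.3 for Ppm1d, -3.64 for Atm, -4.92 for Atr, 21.6 for Chek1 and -17.1 for Chek2. The values were above 0 for 5 of 10 genes, with a median of -1.54, beside 52.1% of the 7312 genes and a median of 0.546. In the exact two-sided permutation test over the 6 assignments of the libraries, p was 0.667 for Ppm1d, Atm, Atr, Chek1 and Chek2 and 1.00 for the other genes, where the smallest p that 2 against 2 libraries allow is 0.333. With so few libraries the test cannot pass a threshold of 0.05, and the values do not show that the variants bound alike.

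Within replicate 1 the percentile was higher in CDK6-K43M at 2 of 10 genes, with a median difference of -3.97 points, beside 58.1% of the 7312 genes and a median of 1.09 points. Within replicate 2 it was higher at 5 of 10 genes, with a median of 0.805 points, beside 49.2% and -0.155 points. Chek1 was higher in CDK6-K43M within both replicate numbers, and Ppm1d, Atm, Atr and Chek2 were lower within both. In replicates 1 and 2 the difference was 5.05 and 38.2 for Chek1 and -9.73 and -24.8 for Ppm1d. It was -3.31 and -3.96 for Atm, -6.20 and -3.63 for Atr and -5.82 and -28.4 for Chek2. The spread between replicates used above ignores replicate number and so includes the gap between the numbers. When 1 library was left out, the direction of the difference in mean percentile changed for 9 of 10 genes, all but Ppm1d, over a range from -57.4 to 53.2 points. The number of genes with a promoter peak, summed over the lists, differed by 0 between CDK6-K43M and CDK6-WT.

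The 10 genes carried 105 peaks in all over the 4 lists, of which 68 overlapped a promoter, and the others formed 16 gene body regions. Of these regions 6 were bound by both variants, in 4 of 10 genes (Trp53, Mdm4, Ppm1d and Usp7), against 17.1% of all genes. Without CDK6-WT replicate 1 the count was 2 genes, and without CDK6-WT replicate 2 or CDK6-K43M replicate 2 it was 5. Mdm2, Prmt5, Atm, Chek1 and Chek2 had no peak in the gene body beyond the promoter windows. Usp7 had 9 of the 16 regions, with percentiles between 1.26 and 44.9, so that most of its gene body peaks ranked low in their lists.

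The motifs around the summits were compared with those of all promoter regions bound by both variants, in windows reaching 100 bp to either side. A CCAAT box was found in 5 of 13 regions of the group (Mdm2, Prmt5, Ppm1d, Atm and Chek2), beside 23.7% of 9900 regions. The SP1 motif was found in 4 of 13, beside 49.7%. The ETS motif CCGGAAGT was found in 1 (Mdm4), beside 7.75%, the RUNX motif TGTGGT in 0, beside 11.2%, and the NRF-1 consensus in 0, beside 5.08%. The p53 half-site consensus was found in 2, both at Ppm1d, beside 4.46%, and an E2F motif in 1 (Chek1), beside 2.45%. These shares are descriptions of 13 windows.

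In the RefSeq promoters, 250 bases before to 50 after the start, the p53 half-site consensus was present at 3 genes, beside 7.29% of 20150 promoters of protein-coding genes. The half-sites are shown because p53 is known to act on its own regulators. They were GGACTTGCCC at Trp53 (chr11:69580284-69580293, plus strand), GAACTTGCCT at Mdm2 (chr10:117710935-117710944, minus strand) and GAGCTTGCTC at Ppm1d (chr11:85311122-85311131, plus strand). A single half-site is shorter than the paired element p53 usually binds. The ratio of observed to expected CpG was 0.896 at the median of the promoters of the group (range 0.306 to 1.14), beside 0.588 for all promoters.

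The wider pathway, in lists drawn up with earlier results of these data known, was occupied in part. Of 30 p53 target genes 20 had a promoter region bound by both variants (66.7%), beside 41.3% of all genes. The highest mean percentiles were those of Apaf1, the core of the apoptosome, Sesn1, a stress-induced regulator of growth signalling, and Dram1, a lysosomal autophagy protein, at 89.3 each. No promoter peak was listed for Eda2r, Phlda3, Tnfrsf10b, Perp, Plk2 and Gdf15. Btg2, an antiproliferative gene, and Ei24, an apoptosis-linked gene, had a region unique to CDK6-K43M, with percentiles of 62.2 and 58.4 at Btg2 and of 37.1 and 52.0 at Ei24. Cdkn1a, the cell cycle inhibitor p21, was singled out after its values were seen, and is among the 20 genes bound by both. A merged region with peaks in all 4 lists reached its promoter window, although only the replicate 1 peaks themselves overlapped the window, at percentiles of 59.5 in CDK6-WT and 96.8 in CDK6-K43M.

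Of 30 other modifiers of p53, 27 had a promoter region bound by both variants. Cdkn2a, whose ARF product inhibits MDM2, had the highest mean percentile (95.6), followed by the lysine demethylase gene Kdm1a (86.1) and the p53 kinase gene Hipk2 (85.5). At Cdkn2a the percentile was 97.1 and 96.4 in CDK6-WT and 99.4 and 89.5 in CDK6-K43M, so that all 4 libraries were high. All 25 partners of ATM and ATR had such a region, led by the clamp loader gene Rad17 (89.2), the damage mediator gene Mdc1 (88.8) and Rad50 of the break-sensing MRN complex (85.1). Of 4 PRMT5 partners 3 had one, and Riok1, an adaptor of PRMT5, was the only one of them with a promoter peak in all 4 lists (75.5). In the p53 family 1 of 2 genes was bound by both: Trp63 had no promoter peak, and at Trp73 a region with peaks in 4 lists reached the promoter window, which the peaks of 2 lists overlapped.

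The lists were checked for the labelled cell type. All 8 B-lineage marker genes had a promoter region bound by both variants, with median percentiles between 87.3 and 93.4 in the 4 lists. Of 4 T-lineage genes 0 had one, and Cd3e, Cd4 and Cd8a had no promoter peak. Of 4 myeloid genes 1 had one, Lyz2, at percentiles of 12.5 to 36.3 in 3 lists, and Itgam, Csf1r and Elane had none.

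**Figure D5:**
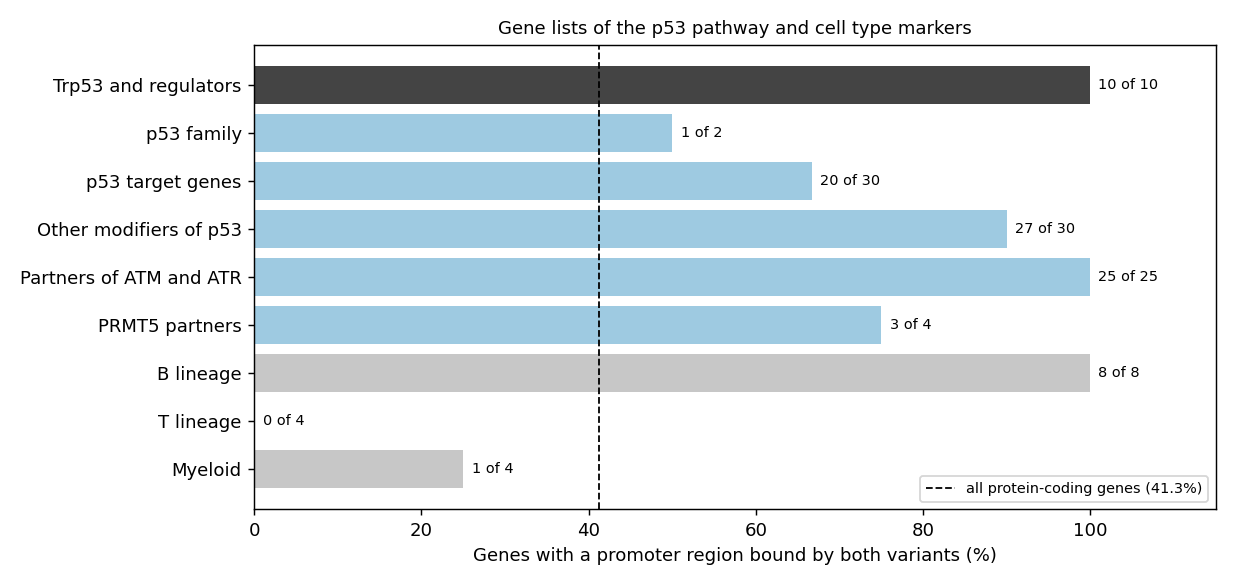
Share of genes with a promoter region bound by both variants (x axis, percent, from 0) for Trp53 and its regulators, lists of the p53 pathway and cell type markers, with the number of genes at each bar and a dashed line at 41.3% for all protein-coding genes. The 10 genes and the partners of ATM and ATR stand at 10 of 10 and 25 of 25, the p53 targets at 20 of 30 and the T-lineage genes at 0 of 4.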

How the data were processed

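HA-ChIP-seq of 4 libraries (CDK6-WT and CDK6-K43M, 2 each) was analysed. The 2 Input libraries were not analysed here. Per the methods and the submitters' processing notes, the authors trimmed reads with Trimmomatic 0.36, mapped them to mm10 with BWA 0.7.15, filtered them with SAMtools 1.3.1 and called peaks for each library with MACS2 2.1.0. The deposited lists give for each peak a fold enrichment (a ratio over local background), −log10 p, −log10 q, a score (10 times −log10 q, cut to a whole number) and the summit offset. Neither fold nor −log10 q is comparable across depths, so percentiles of −log10 q within a list were used. Summit reads and background were solved from the fold and −log10 p columns, and the solution matched the deposited −log10 p within 0.001 for 100% of peaks. That step and the overlap step were checked on simulated data. Lists held 35189, 34729, 39797 and 37304 peaks (CDK6-WT, then CDK6-K43M). Transcript starts came from GENCODE vM21, and the authors used M13. Python 3.11.15, pandas 2.3.3, scipy 1.17.1 and pysam 0.24.0 were used. The 10 genes are named in full. Of the pathway lists, genes with no promoter peak, with a region unique to a variant, and the 3 highest by mean percentile are named. The genes and lists were chosen with earlier results of these data known. P-values set a difference against those under other assignments of the libraries, and the spread between libraries may be technical.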

Additional observations from a re-analysis of the deposited data

How the results depend on the processing

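The number of genes with a promoter region bound by both variants was 10 under other windows, overlap rules and transcript sets. For these settings the share of all genes was not computed. It was also 10 without any 1 library and with wider merging, but each gene had a promoter peak in all 4 lists, so these are no sign of stability. It was 9 at a −log10 q of at least 5 and 2 at a −log10 q of at least 10 or among the 10000 highest peaks. Promoter peaks in all 4 lists were found for 7, 2 and 1 genes under these stricter lists, in that order, beside 23.5%, 8.41% and 5.98% of all genes. The number of genes with a promoter peak, CDK6-K43M minus CDK6-WT, moved from 0 to 2, 1 and -3. Genes with a gene body region bound by both numbered 2, 1 and 1, and ranged from 2 to 5 without 1 library. These lists hold fewer peaks by construction.

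No permutation p fell below 0.333 under any alternative. With the replicate block, the differences were the same (-17.3 for Ppm1d and 21.6 for Chek1, for example), and the exact sign test over both numbers gave p = 0.5 for Ppm1d, Atm, Atr, Chek1 and Chek2 and 1.00 for the others, where 0.5 is the smallest p. Deviations of same-numbered libraries from their variant means correlated at 0.573 over 7312 genes, as a hint from the data and not from the labels. The difference for Prmt5 was -12.7 with 500 bp windows, which leave out the upstream peak of CDK6-K43M replicate 2, in place of 0.557. It was -7.12 by fold enrichment, and the cause was not tested. For Trp53 the difference was -16.0 with 500 bp windows in place of -7.32. Those windows leave out the separate upstream peaks of both replicate 2 lists. They keep the joined peak of CDK6-K43M replicate 1, whose summit is the upstream one, so the difference still mixes the sites. Without 1 library, the differences ranged from -20.6 to 5.93 for Trp53, -21.4 to 28.8 for Mdm2, -17.2 to 20.3 for Mdm4, -7.68 to 8.80 for Prmt5, -30.3 to -4.29 for Ppm1d, -9.96 to 2.68 for Atm, -21.0 to 11.2 for Atr, -9.94 to 53.2 for Chek1, -57.4 to 23.2 for Chek2 and -21.0 to 35.8 for Usp7. Of 120 differences recomputed, 82 kept their direction, 18 took the other and 20 gave no value, since a list then held no promoter peak of the gene. The replicate block cannot change a difference, so its directions were fixed in advance. Requiring the summit to lie in the promoter window gave the main value at each gene. Basic protein-coding transcript starts did so at all but Chek2. The count of 82 is therefore no measure of stability.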
